A study of Mus musculus with 6 samples.

Results

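The genes described are 10 negative-feedback and target genes of the ERK pathway, chosen by name from the 52459 genes of the count table: the dual-specificity phosphatase genes Dusp1, Dusp2, Dusp4, Dusp5 and Dusp6, the adaptor genes Spry1, Spry2, Spred1 and Spred2, and the transcription factor gene Etv5. They were measured by RNA-seq in megakaryocytic-erythroid progenitors, bone marrow cells whose progeny are megakaryocytes, the source of platelets, or red cells. Of the 6 libraries, 3 were wild-type (WT) and 3 Tmprss6-/- (KO), and the cells of 3 mice went into each library. Tmprss6 encodes a liver protease that restrains hepcidin, and the study title places the knockout in a condition of iron deficiency. The labels name no strain, age, sex or treatment, and no other allele. The cells were sorted as lineage-negative, cKit-positive and Sca-negative, without Fc gamma receptor, CD105 or CD41 and with CD150. All 10 genes were in the table, and 9 passed the filter on low counts, all but Dusp4.

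Growth factor receptors such as KIT and the thrombopoietin receptor switch on RAS, which activates the kinases RAF, MEK and ERK in turn. Active ERK enters the nucleus and induces genes that shut the cascade down again. DUSP proteins remove the activating phosphates from ERK and its relatives JNK and p38, whereas Sprouty and Spred proteins act further upstream, at the steps that load RAS and pass its signal to RAF. In blood progenitors this cascade carries the signals for survival, proliferation and megakaryocyte maturation.

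The promoters of Dusp1, Dusp5 and Dusp6 are shown as the 250 bases before the RefSeq start site (GRCm38.p6). For Dusp1 and Dusp5 that site lies inside the gene span of the count table, given below, so the end of the stretch overlaps that span. Dusp1 and Dusp6 fell in KO when the libraries numbered 1 and 3 were compared. Dusp5 was lower in KO in the libraries numbered 1 and higher in those numbered 3. Capitals mark matches, on either strand, to the core of the cyclic AMP response element (TGACG) or the serum response element core (CArG box); no other searched motif was marked.
Dusp1, chr17:26508473-26508722, minus strand: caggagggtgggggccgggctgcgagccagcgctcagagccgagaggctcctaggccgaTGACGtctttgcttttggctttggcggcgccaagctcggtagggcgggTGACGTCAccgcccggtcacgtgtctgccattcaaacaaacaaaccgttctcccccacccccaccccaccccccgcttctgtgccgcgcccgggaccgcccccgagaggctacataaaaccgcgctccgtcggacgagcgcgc
Dusp5, chr19:53528895-53529144, plus strand: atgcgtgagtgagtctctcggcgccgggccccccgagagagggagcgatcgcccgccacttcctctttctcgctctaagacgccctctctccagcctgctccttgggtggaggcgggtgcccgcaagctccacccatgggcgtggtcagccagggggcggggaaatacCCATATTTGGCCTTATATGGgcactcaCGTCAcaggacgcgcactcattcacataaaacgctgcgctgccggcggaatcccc
Dusp6, chr10:99262981-99263230, plus strand: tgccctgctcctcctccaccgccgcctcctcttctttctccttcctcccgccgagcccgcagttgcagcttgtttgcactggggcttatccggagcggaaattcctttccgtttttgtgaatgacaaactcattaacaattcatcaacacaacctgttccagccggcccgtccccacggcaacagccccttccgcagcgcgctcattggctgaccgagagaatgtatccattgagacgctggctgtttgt
Promoters of 9 of the 10 genes were in the RefSeq table, which has windows of 250 bases before to 50 after the start. The Dusp1 window held the full palindrome TGACGTCA, first base at -143, which 1.79% of 32851 promoters of that length held. Its core TGACG was in 20.8% of promoters and in those of Dusp1, Dusp2, Dusp5 and Spred2. The Dusp5 window held 2 CArG boxes side by side, first bases at -82 and -72, a motif found in 1.63% of promoters and in no other window of these genes. The AP-1 motif TGANTCA (7.81% of promoters) was in none of the windows, and the ETS motif CCGGAA (14.9%) in that of Spry2 alone. The Dusp6 window held neither of these nor TGACG or a CArG box.

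Total counts were 13402209 to 22986837 per library, and 3 counts, taken as the floor, stood for 0.138 to 0.220 CPM (counts scaled to a common library size, with TMM factors). All 10 defining genes of the progenitor, Kit, Gata1 and Epor among them, had counts in every library. Tmprss6 had 0 to 5 counts per library in both genotypes, so it checked no label. KO replicate 2 stood apart: all 13 eosinophil, basophil and mast cell markers, all 11 neutrophil precursor markers, all 13 macrophage and monocyte markers and all 9 late erythroblast markers were highest there. Their summed levels in it were 8750, 3400, 2570 and 5250 CPM, against 43.5 to 824, 83.0 to 380, 33.6 to 203 and 151 to 390 CPM in the other 5 libraries. Libraries numbered 3 also stood apart in both genotypes. The female transcript Xist was at 24.9 and 12.8 CPM in them and at most 0.0688 CPM elsewhere. The male transcript Ddx3y was at 0.0711 and 0 CPM in them and at 53.2 to 80.2 CPM elsewhere. By these transcripts the libraries numbered 3 were female and the others male. The summed level of the 10 defining genes was 4310 and 3730 CPM in the libraries numbered 3 against 2010 to 2690 CPM elsewhere.

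Per kilobase of the longest coding transcript, Dusp1 was the most abundant of the 10 messages, and Dusp4 and Spry2 had the fewest counts. The WT means were 265 ± 91.1 CPM per kilobase for Dusp1, 34.3 ± 9.71 for Dusp2, 24.5 ± 8.42 for Dusp6 and 9.20 ± 4.34 for Spred1 (SD, n = 3). They were 4.92 ± 3.12 for Etv5, 2.13 ± 0.29 for Spred2, 1.97 ± 1.27 for Spry1 and 1.68 ± 1.10 for Dusp5. Among neighbours in this order, Spred2 and Spry1, and likewise Spry1 and Dusp5, differed by less than either SD. The means of Dusp2 and Dusp6 differed by more than either SD, but Dusp2 was the lower in WT 3, at 23.3 against 34.0 CPM per kilobase. Spred1 was above Etv5 in each of the 6 libraries, although their WT ranges overlapped, and Etv5 in WT 1, at 2.06 CPM per kilobase, lay within the range of Spred2. In KO the first 5 places were held by the same genes in the same order, with Dusp1 at 162 ± 81.9 and Dusp2 at 30.4 ± 16.7 CPM per kilobase.

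Dusp1 (ENSMUSG00000024190, chromosome 17, 26505590 to 26508519, minus strand) encodes a nuclear phosphatase that acts on JNK and p38 as well as ERK and is itself an immediate early gene. Its level was 730, 469 and 382 CPM in WT replicates 1 to 3 and 358, 464 and 145 CPM in KO replicates 1 to 3. The KO libraries 1 and 3 were lower than every WT library, while KO 2 was level with WT 2, so that the groups overlapped. Within pairs, that is, libraries of the same replicate number, the log2 difference was -1.03, -0.01 and -1.40, or 2.04-fold and 2.64-fold lower in pairs 1 and 3. Over all 6 libraries the log2 fold change was -0.71 (SE 0.47) and did not pass (edgeR adjusted p = 1.00). With the replicate number as a block it was -0.81 (SE 0.28, edgeR adjusted p = 0.995). In the pairs 1 and 3 alone, compared with the block, Dusp1 fell 2.32-fold (log2 fold change -1.21, SE 0.11, edgeR adjusted p = 2.7e-05), the fifth smallest p of 13572 genes. Over that comparison's alternatives the adjusted p ran from 4.21e-19 to 1.00; the call was lost without the block and in either other choice of pairs. Leaving out each library in turn from the 6, with no block, gave log2 fold changes from -1.07 without KO replicate 2 to -0.40 without WT replicate 1 and -0.36 without KO replicate 3, and none of them passed.

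Dusp6 (ENSMUSG00000019960, chromosome 10, 99263231 to 99267489, plus strand) encodes the cytoplasmic phosphatase selective for ERK, a widely used readout of ERK activity. It stood at 50.3, 60.2 and 95.1 CPM in WT replicates 1 to 3 and at 37.1, 58.1 and 55.4 CPM in KO replicates 1 to 3. KO 1 was the lowest library and WT 3 the highest, and the groups overlapped. The log2 difference within pairs was -0.44, -0.05 and -0.78. Over all 6 libraries it did not pass (log2 fold change -0.45, SE 0.34, edgeR adjusted p = 1.00). Without WT replicate 3 that value was -0.14, and without KO replicate 1 it was -0.28. In pairs 1 and 3 it fell 1.53-fold (log2 fold change -0.61, SE 0.13, edgeR adjusted p = 0.0441), close to the threshold. The adjusted p was 0.0745 with RLE scaling and 0.1 with DESeq2, and all alternatives together spanned 0.0234 to 1.00.

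Dusp1 and Dusp6 were the members called. Over all 6 libraries edgeR called 0 of the 9 tested, beside 0.0% of all 13453 genes, and none of the 9 had an unadjusted p under 0.05, against 234 genes (1.74%). The block fit called 0 of the 9 and 0 genes in all. DESeq2 called 0 of the 9, beside 6 genes (0.0446%). In pairs 1 and 3, 2 of 9 were called as lower and 0 as higher, beside 0.604% and 0.258% of all 13572 genes. This comparison leaves out KO replicate 2, a choice made with earlier results of these data known. Of the 9 genes 6 were lower in KO in both pair 1 and pair 3, beside 30.9% of all genes. Dusp1 and Dusp6 were the only members lower in 3 of 3 pairs, which held for 13.4% of all genes, and in both the difference in pair 2 was close to 0. No member had groups that did not overlap, beside 1.76% of all genes with every KO library below every WT library and 2.27% with every one above. The smallest exact permutation p among the 10 was 0.2, that of Dusp1 (two-sided), where 3 against 3 libraries allow 0.1. Whether pair 2 differed from the other pairs was not tested.

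**Figure D1:**
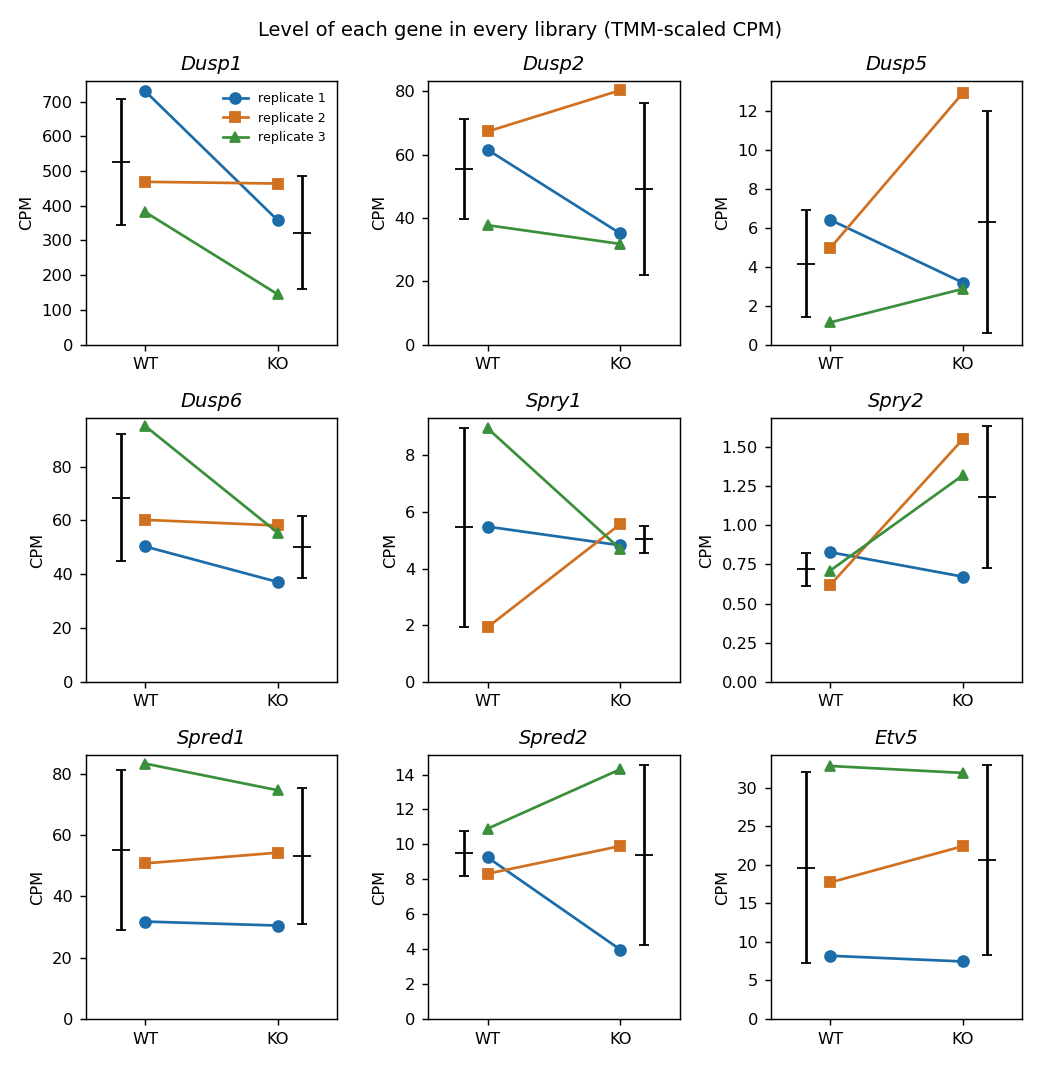
Level of the 9 genes past the filter, in CPM (vertical axis, from 0), in WT and KO libraries; lines join libraries of the same replicate number and black bars give the mean and SD of 3 libraries. Dusp1 falls from 730 to 358 CPM in pair 1 and from 382 to 145 CPM in pair 3, while the pair 2 line is flat.

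Other transcripts moved beside Dusp1 and Dusp6 in these pairs. The 13 eosinophil, basophil and mast cell markers summed to 824 CPM in WT 1 against 294 CPM in KO 1, and to 148 CPM in WT 3 against 43.5 CPM in KO 3, with 6 of the 13 at 0 counts in KO 3. Of that list 6 of 12 tested members were called as lower, Prg2 and Epx among them, beside 0.604% of all genes. The neutrophil list went from 380 to 119 CPM in pair 1 but from 83.0 to 282 CPM in pair 3, and the macrophage and monocyte list from 202 to 97.0 CPM and from 33.6 to 203 CPM. Of these lists 2 neutrophil genes, Ltf and Ngp, were called as lower and 0 macrophage and monocyte genes were called. The late erythroblast list went up, from 250 to 371 CPM in pair 1 and from 151 to 390 CPM in pair 3. Of its 9 tested members 4, Hbb-bs, Hbb-bt, Hba-a1 and Alas2, were called as higher, beside 0.258% of all genes. The lymphoid list went from 571 to 568 CPM and from 274 to 892 CPM, with 1 gene, Jchain, called as higher. The platelet and megakaryocyte list lay between 279 and 402 CPM in all 6 libraries. The part of these lists in the difference of Dusp1 and Dusp6 was not tested. In these bulk libraries, fewer cells of a type and less RNA per cell cannot be told apart.

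Dusp2, Dusp5 and Dusp4 encode nuclear phosphatases. Dusp2 (ENSMUSG00000027368, chromosome 2, 127336159 to 127338376) was at 61.5, 67.3 and 37.7 CPM in WT replicates 1 to 3 and at 35.1, 80.3 and 31.8 CPM in KO replicates 1 to 3. It was lower in KO in pairs 1 and 3, by log2 differences of -0.81 and -0.24, and higher in pair 2, where KO 2 was the highest of all libraries. Its log2 fold change in pairs 1 and 3 was -0.54 (SE 0.17) and did not pass (edgeR adjusted p = 0.176; 0.0924 to 1.00 over the alternatives).

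Dusp5, which encodes a phosphatase specific for ERK (ENSMUSG00000034765, chromosome 19, 53529109 to 53542431), was scarce and uneven. Its level was 6.40, 4.95 and 1.14 CPM in WT replicates 1 to 3 and 3.18, 12.9 and 2.86 CPM in KO replicates 1 to 3, from 16 counts in WT 3 to 208 in KO 2. The pair differences went both ways, at log2 -0.98, 1.36 and 1.24, so that its 6-library value of 0.60 (SE 0.81, edgeR adjusted p = 1.00) turned to -0.47 without KO replicate 2. KO 2 is the library with the highest summed levels of markers of other blood cells, and their part in its Dusp5 level was not tested. Dusp4 (ENSMUSG00000031530, chromosome 8, 34807297 to 34819894) had 4 counts in KO 2, 1 in WT 2 and 0 in the other 4 libraries, at or near the floor of 3 counts. It was not detectable as different at this depth, and no fold is given.

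**Figure D2:**
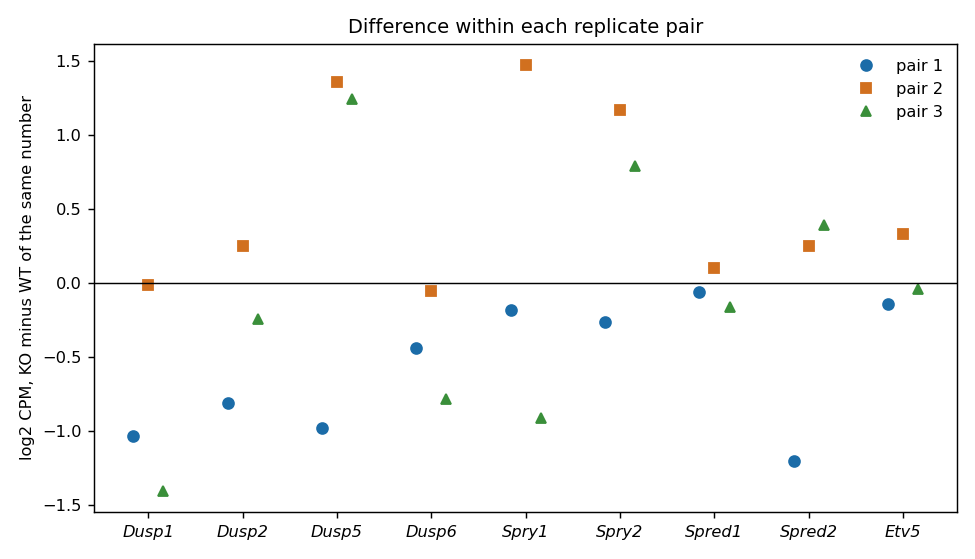
Log2 CPM of the KO library minus that of the WT library with the same replicate number (vertical axis) for the 9 genes past the filter; each symbol is 1 pair. Pair 2 lies at -0.01 for Dusp1 and -0.05 for Dusp6, and above 0 for the other 7 genes.

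Sprouty proteins are inducible inhibitors that bind growth factor signalling adaptors. Spry1 (ENSMUSG00000037211, chromosome 3, 37639947 to 37644598) was at 5.48, 1.93 and 8.95 CPM in WT replicates 1 to 3 and at 4.82, 5.57 and 4.69 CPM in KO replicates 1 to 3. The KO libraries lay close together and inside the WT range. The log2 differences within pairs were -0.18, 1.47 and -0.91, and the 6-library value of -0.11 (SE 0.58, edgeR adjusted p = 1.00) became 0.10 with the block and 0.44 without WT replicate 3. Spry2 (ENSMUSG00000022114, chromosome 14, 105891949 to 105896819) had only 9 to 25 counts per library, 0.619 to 0.828 CPM in WT and 0.672 to 1.55 CPM in KO. It was higher in pairs 2 and 3 and lower in pair 1. Its 6-library log2 fold change, 0.70 (SE 0.56), did not pass (edgeR adjusted p = 1.00), and its low counts limit the precision.

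Spred1 and Spred2 encode adaptors that bring the RAS inhibitor neurofibromin to the membrane. Spred1 (ENSMUSG00000027351, chromosome 2, 117121374 to 117182279) was at 31.8, 50.8 and 83.4 CPM in WT replicates 1 to 3 and at 30.5, 54.3 and 74.7 CPM in KO replicates 1 to 3. Libraries of the same number were thus close, within log2 0.16 of each other in each pair, while the levels varied 2.73-fold over the 6 libraries. Its genotype difference was -0.04 (SE 0.15) on the log2 scale with the block, and it did not pass (edgeR adjusted p = 0.997). Spred2 (ENSMUSG00000045671, chromosome 11, 19924375 to 20024026) was at 9.25, 8.32 and 10.9 CPM in WT replicates 1 to 3 and at 3.97, 9.90 and 14.3 CPM in KO replicates 1 to 3. KO 1 was the lowest and KO 3 the highest library, with pair differences of log2 -1.20, 0.25 and 0.39.

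Etv5 (ENSMUSG00000013089, chromosome 16, 22381309 to 22439719), an ETS family transcription factor gene that ERK signalling induces, tracked Spred1 from library to library. It was at 8.19, 17.7 and 32.8 CPM in WT replicates 1 to 3 and at 7.45, 22.4 and 31.9 CPM in KO replicates 1 to 3. The groups overlapped, with pair differences of log2 -0.14, 0.33 and -0.04, and the level varied 4.34-fold over the libraries. The number 3 libraries were highest of their genotype in both genotypes for Spred1, Spred2 and Etv5, a pattern that 25.2% of all genes shared. These are also the libraries with Xist and with the highest summed level of the defining progenitor genes, and the part of either was not tested. Kit, a member of that list and the receptor for stem cell factor, was at 392, 820 and 1640 CPM in WT replicates 1 to 3 and at 316, 575 and 1240 CPM in KO replicates 1 to 3.

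Over the 6 libraries the genes fell into different profiles. The Pearson correlation of log2 CPM was 0.99 for Spred1 with Etv5, 0.82 for Dusp6 with Spred1, 0.78 for Dusp6 with Etv5 and 0.78 for Spred2 with Etv5. It was 0.71 for Dusp1 with Dusp2 and 0.82 for Dusp2 with Dusp5. Between Dusp1 and Dusp6, the called genes, it was -0.014, and between Dusp1 and Etv5 it was -0.55. These values describe 6 points that share genotype, replicate number and depth, and carry no test. The genes of at least 5 CPM closest to Dusp6 among 9434 were Plxdc1, Slc24a3, Ddx60, Wdr25 and Atxn7l1, with correlations of 0.978 to 0.988. After subtraction of the genotype means they were Dcaf12, Limk2, Gga1, Atg13 and Plekhb2, at 0.998 to 0.999. For Spry1 they were Hsdl2, Cyhr1, Araf, Sclt1 and Pold3, at 0.928 to 0.958, and after subtraction Btd, Sclt1, Cyhr1, Riok1 and Myd88, at 0.970 to 0.991. The same ranking for Dusp1, added after its values were seen, gave Sgcb, Zfp946, Zbtb48, Birc2 and the AP-1 gene Junb, at 0.969 to 0.996, and after subtraction Cdca3, Gypc, Cdkn1a, Sgcb and Eldr, at 0.994 to 0.999, with no AP-1 gene. Jun, Fos and Klf6 took places 6, 10 and 12 of the ranking without subtraction, with correlations of 0.965, 0.954 and 0.946, whereas Egr1 was at 0.125 and Myc at -0.647.

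**Figure D3:**
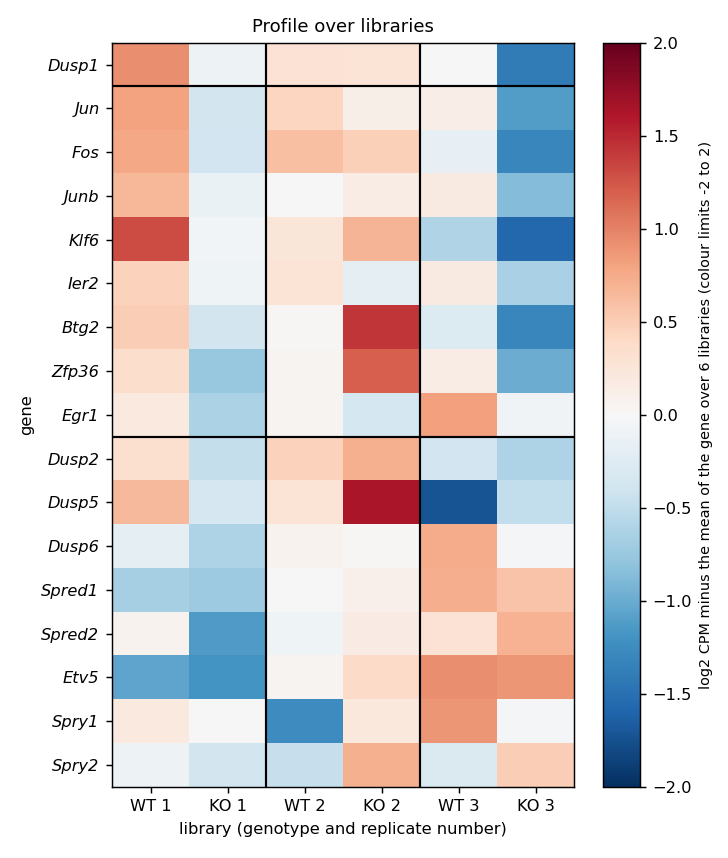
Log2 CPM minus the mean of each gene over the 6 libraries (colour), with Dusp1 at the top, the 8 immediate early genes called in pairs 1 and 3 below it and the other genes past the filter last; columns are libraries ordered by replicate number. Dusp1, Jun and Fos are lowest in KO 3, while Spred1 and Etv5 are high in both libraries numbered 3.

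The immediate early genes held all the called genes among the rest of the pathway. Most are transcription factor or RNA-binding protein genes that growth factor and stress signals induce within minutes. Their list also held genes that this description does not cover. Among these were Elk1, Elk3, Elk4, Mcl1, Ier3, Phlda1 and Ccnd1, which were not called, and Btg2, which was. In pairs 1 and 3, 8 of 26 tested genes of that list were called as lower and 0 as higher, beside 0.604% and 0.258% of all genes. The median log2 fold change of the list was -0.47 against -0.01 over all genes. Jun and Fos, whose products form the AP-1 factor, had log2 fold changes of -1.22 (SE 0.10) and -1.15 (SE 0.10), beside -1.21 for Dusp1. The same quantity was -1.18 for Klf6, a zinc finger factor gene, -1.13 for Zfp36, whose product destabilises short-lived messages, and -0.95 for Btg2, an antiproliferative gene. It was -0.92 for Junb, -0.86 for Egr1 and -0.68 for Ier2. Their edgeR adjusted p-values there ran from 1.96e-05 (Jun) to 0.00723 (Ier2). As with Dusp1, all 8 calls were lost without the block and in either other choice of pairs, where the adjusted p reached 1.00. Over all 6 libraries without the block none passed, with 20 of 26 lower and a median of -0.19. Egr1 alone had an unadjusted p under 0.05 in that fit (edgeR). With the block none passed in edgeR either. The unadjusted p there was 0.00407 for Egr1, 0.00552 for Ier2, 0.00652 for Jun and 0.0164 for Fos (edgeR). Among all 13453 genes, 476 had an unadjusted p under 0.05 in the block fit. Jun was the exception among the alternatives: DESeq2 with the replicate block called it (adjusted p = 0.0291). Its log2 fold change ran from -1.18 to -0.60 over the alternatives. In Jun, Egr1 and Ier2 every KO library was below every WT library (exact permutation p = 0.1 each, two-sided, the smallest that 3 against 3 allow), a pattern of 1.76% of all genes.

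Pair 2 divided these genes. Egr1 was lower in KO 2 (119 CPM) than in WT 2 (158 CPM), as were Ier2 (194 against 268 CPM), Jun (397 against 495 CPM) and Fos (440 against 479 CPM), so that all 4 were lower in 3 of 3 pairs. The other 4 were higher in KO 2, Junb at 197 against 179 CPM, Klf6 at 139 against 102 CPM, Zfp36 at 223 against 102 CPM and Btg2 at 189 against 71.3 CPM. Dusp1, level in that pair, lay between them. KO 2 carried the marker transcripts of other blood cells given above, whose part in these values was not tested.

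The cascade that these genes restrain showed no gene called by edgeR in either comparison. All 14 genes of the list of RAS, RAF, MEK and ERK, with Ksr1, Lamtor3 and Pebp1 among them, were tested. Over 6 libraries 12 were above 0 in fitted log2 fold change, with a median of 0.10 and 0 called. The median over all genes was -0.005, and 50.7% of all genes were below 0. In pairs 1 and 3, 10 of the 14 were above 0, with a median of 0.07 and 0 called. Pebp1, which encodes a RAF inhibitor and is among the most abundant of them, stood at log2 fold changes of -0.23 over 6 libraries and 0.08 in pairs 1 and 3. Of 13 receptor genes 12 were tested and 0 called in both comparisons. In pairs 1 and 3, 6 of them were above 0 and 6 below. Csf2rb was higher in 3 of 3 pairs, with every KO library above every WT library, as in 2.27% of all genes. It was highest in KO 2, at 56.2 CPM. Its log2 fold change was 2.34 (SE 0.84, edgeR unadjusted p = 0.0243) over 6 libraries. In pairs 1 and 3 it was 0.93 (SE 0.37, edgeR unadjusted p = 0.023, adjusted p = 0.271). In pairs 1 and 3 Kit stood at log2 -0.36 (SE 0.09, edgeR adjusted p = 0.0858), and it was lower in 3 of 3 pairs. DESeq2 called it there (adjusted p = 0.0363), while the other alternatives did not. Csf1r, the receptor gene of macrophage growth factor, was called as higher in pairs 2 and 3 alone (log2 fold change 3.83, edgeR adjusted p = 0.00157), a choice that includes KO 2. Epor, the erythropoietin receptor gene, stood at log2 0.03 in pairs 1 and 3. Among adaptors and RAS exchange factors, Grb2 and Shc1 were at -0.07 and 0.02 there, with 0 of 11 tested called. The 7 RAS GTPase activators and the 7 ERK-activated kinases likewise had 0 called, with Rasa3 at -0.11, Rasal3 at -0.16, Mknk2 at -0.09 and Rps6ka1 at 0.09.

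Of 6 other genes of MAP kinase phosphatases and their relatives 5 were tested in pairs 1 and 3 and 0 called, with a median log2 fold change of -0.15. The 5 include Styxl1, a relative, at 0.36 (SE 1.02). The WT libraries held 16.7 to 32.8 CPM of Dusp7, an ERK phosphatase gene, and 3.27 to 7.60 CPM of Dusp16, whose product acts on JNK. The KO libraries held 14.0 to 33.6 and 4.09 to 7.98 CPM. Of 5 other Sprouty, Spred and PEA3 genes only Spry4 passed the filter. Its WT libraries ranged from 3.36 to 6.25 CPM and its KO libraries from 2.20 to 5.35 CPM, with the KO library lower in 3 of 3 pairs. The log2 fold change in pairs 1 and 3, -0.41 (SE 0.40), did not pass (edgeR adjusted p = 0.746). Myc, an immediate early gene and the most abundant of its list, was at log2 -0.09 (SE 0.09) there and, like Spred1, was highest in the libraries numbered 3, at 1430 and 1360 CPM.

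**Figure D4:**
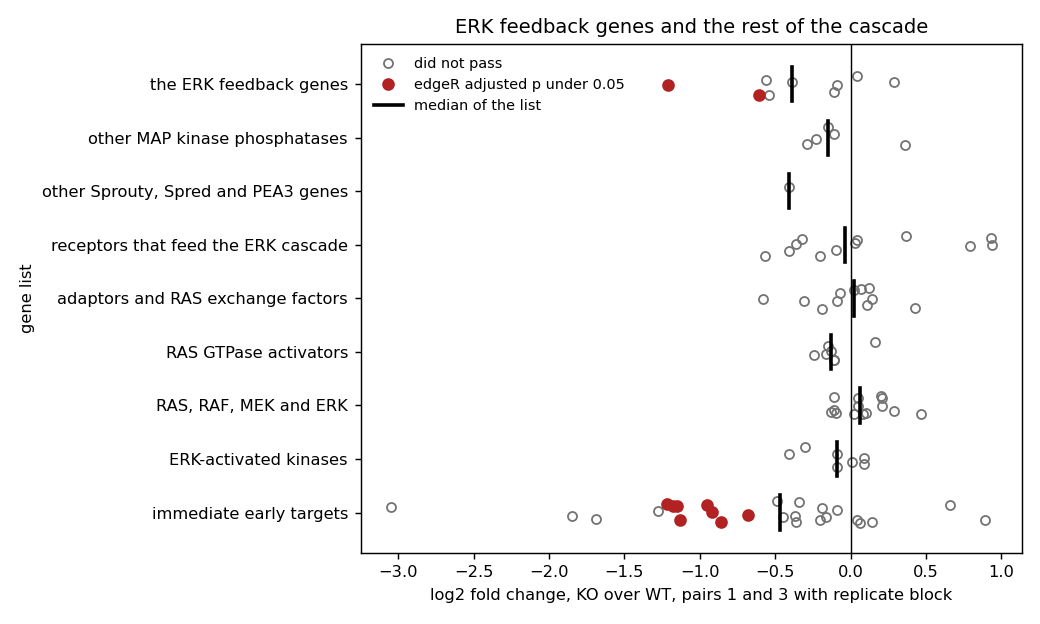
Log2 fold change of KO over WT in pairs 1 and 3 with the replicate block (horizontal axis) for the ERK feedback genes and 8 lists of pathway genes; each circle is a gene, filled red where the edgeR adjusted p is under 0.05, and the bar is the list median. The 10 filled circles are Dusp1 and Dusp6 in the top row and 8 immediate early genes in the bottom row, all below 0.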

How the data were processed

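RNA-seq counts of 6 libraries were analysed, grouped by the genotype in their titles. The authors deposited read counts per Ensembl gene, whole numbers without scaling. SMART-Seq v4 and Nextera XT, which do not mark the strand, were used per the labels' protocols. STAR 2.5.3a, FastQC 0.11.5, edgeR, GRCm38.p3 and GRCh38.p3 are named per the submitters' processing notes. Which read counter and annotation the authors used is not given in the sources used here. Of 52319 genes also in GENCODE M21 (GRCm38), 95.2% had the same span; Dusp1 and Spry2 did not. Transcript length is that of the longest coding transcript in M21.

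Genes were filtered with filterByExpr (minimum count 10, minimum total 15), which kept 13453 genes. They were scaled by TMM and tested with the quasi-likelihood test of edgeR 4.0.16 in R 4.3.3, two-sided, and p-values adjusted by Benjamini-Hochberg were called under 0.05. Log2 CPM add a prior count of 2. The SE given with an edgeR log2 fold change is its absolute value divided by the square root of the quasi-likelihood F statistic. The fit of pairs 1 and 3 has the replicate number as a block and 1 residual degree of freedom per gene. That fit and its SE thus lean on spread shared across genes. Alternatives used DESeq2 1.42.0, limma 3.58.1, other scalings, filters and pairs, and left out each library. On simulated counts, the 6-library fit recovered 0% of the 2-fold changes and 10.5% of the 4-fold ones (13117 genes run, 0 false calls). That of pairs 1 and 3 recovered 51.5% and 85.1% (13167 genes run, 191 of them changed, 18 false calls). The share of false calls among its called genes was thus above the 0.05 threshold in that simulation.

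Both genotypes carry the numbers 1, 2 and 3. Each library's log2 CPM less its genotype mean was correlated across genes with that of the libraries of the other genotype. The values were 0.53, 0.16 and 0.63 for like numbers 1, 2 and 3, and -0.6 to 0.03 for unlike numbers. Because the mean of 3 libraries is subtracted, positive values for like numbers bring lower ones for unlike numbers. Each value for like numbers was over 0.1, so the numbers were taken as pairs. The labels give no meaning for a number, and the pairing rests on the same expression values that the fits with the block use.

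The genes and lists were chosen with earlier results of these data known. Named genes were the 10 genes, Tmprss6 and Kit, the 2 members of highest mean CPM and any called member of each pathway list, the leading members of the lists of other cells, and the nearest genes in profile to Dusp6 and Spry1. Not every gene so named is reported.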

Additional observations from a re-analysis of the deposited data

How the results depend on the processing

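Over all 6 libraries, 0 genes were called by edgeR under every scaling, filter and left-out library, with the replicate block and by limma voom with quality weights, against 6 genes with DESeq2 and 24 with DESeq2 and the replicate block; 0 of the members were called in any of these. In pairs 1 and 3 the 117 genes called became 64 with RLE scaling, 190 with no filter on low counts, 226 with the newer quasi-likelihood method, 0 with no replicate block and 0 in pairs 1 and 2; in pairs 2 and 3 there were 99, of which 5 were among the 117. Of the 2 members called, 1 (Dusp1) was left with RLE scaling and with DESeq2, and 0 with no replicate block, in pairs 1 and 2 or in pairs 2 and 3. There the log2 fold change of Dusp1 was -1.15, -0.52 and -0.69 and that of Dusp6 -0.65, -0.24 and -0.40. The cause of these changes was not tested.

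Dusp1 and Dusp6 stayed below 0 and Spry2 above 0 in each alternative that gave a value. Over all 6 libraries Spry1 turned from -0.11 to 0.10 with the replicate block, 0.11 with DESeq2 and the block and 1.08 with voom, and Spred1 and Spred2 to 0.18 and 0.20 with voom. Leaving out each library in turn gave log2 fold changes of -1.07 to -0.36 for Dusp1, -0.63 to -0.14 for Dusp6, -0.73 to 0.06 for Dusp2, -0.47 to 1.04 for Dusp5, -0.51 to 0.44 for Spry1, -0.39 to 0.37 for Spred1, -0.46 to 0.35 for Spred2 and -0.40 to 0.67 for Etv5. In place of pairs 1 and 3, pairs 2 and 3 turned Dusp2 to 0.02, Spry1 to 0.28, Spred2 to 0.34 and Etv5 to 0.16. Pairs 1 and 2 turned Spry1 to 0.66, Spred1 to 0.02 and Etv5 to 0.10. Dusp5 turned to -0.38 with the newer method and -0.33 with no replicate block. With the replicate block in edgeR, 0 genes were called over the 6 libraries, as without it; with DESeq2 the block raised the count, and Jun was among the genes it called. Plain total counts moved all 18 member levels by less than 1 SD. Counts of 9 to 25 (Spry2) and 0 to 4 (Dusp4) per library limit both genes.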
